A study of Mus musculus with 10 samples.

Results

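The 30 genes described here encode enzymes of cholesterol synthesis, the SREBP machinery that controls them, 1 sterol carrier and the enzymes of fatty acid synthesis. They were chosen by name, as the listed symbols that occur in the expression matrix deposited with the study, and the rule used no measured value, although the list was drawn up with earlier results of these data known. All 30 were found among the 15686 genes of that matrix and among the 55487 genes of the count tables. All 30 also passed the filter on low counts that left 22596 genes for testing. The samples were 10 nuclear RNA-seq libraries, 2 for each of 5 stages of an in vitro differentiation from mouse embryonic stem (ES) cells to blood progenitors. All came from the single ES cell line HM-1 and carried no other stated genetic change. The ES libraries were made from undifferentiated cells kept with LIF in medium with 15% fetal calf serum (FCS). Hemangioblast (HB) libraries came from FLK1+ cells, bead-sorted from embryoid bodies after 3 days without LIF in 15% FCS with ascorbic acid and transferrin. These FLK1+ cells were plated in blast medium (10% FCS with VEGF, IL-6 and medium conditioned by D4T cells), and 3 populations were sorted from that culture. They were hemogenic endothelium 1 (HE1; KIT+ TIE2+ CD41-), hemogenic endothelium 2 (HE2; KIT+ TIE2+ CD41+) and hematopoietic progenitors (HP; KIT+ TIE2- CD41+). Stage and medium therefore changed together from ES to HB and from HB to HE1 and cannot be told apart there, whereas HE1, HE2 and HP shared a medium. The labels do not say whether the 2 libraries of a stage came from separate cultures, whereas the study describes its expression replicates as biologically independent. The p-values measure the spread between these libraries.

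Cells make cholesterol from acetyl-CoA through mevalonate, squalene and lanosterol. When sterols run low in the endoplasmic reticulum, SCAP escorts the SREBP transcription factors (encoded by Srebf1 and Srebf2) to the Golgi, where they are cleaved and released to the nucleus. When sterols are plentiful, INSIG1 and INSIG2 hold the SCAP-SREBP complex back. SREBP2 acts mainly on cholesterol genes and SREBP1 mainly on fatty acid genes, so the enzymes of both routes are classed as SREBP targets. SREBP sites in such promoters often lie near boxes bound by NF-Y.

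The start-proximal sequences of 6 members are shown because these members stand for the patterns described below: Hmgcs1, Mvd and Lss reached their highest mean level in HB, Hsd17b7 and Insig1 carry an E-box, and Insig2 was among the members that varied least between stages. The sequences are 180 bases each, 5′ to 3′ on the strand of the gene, from the RefSeq promoter table of build GRCm38.p6. Capitals mark the NF-Y box (CCAAT, or ATTGG on the other strand), the palindromic E-box CACGTG and the sterol response element core TCACNCCAC. Their positions are chr13:119690171-119690350, plus strand for Hmgcs1, chr8:122443423-122443602, minus strand for Mvd, chr10:76531408-76531587, plus strand for Lss, chr1:169969242-169969421, minus strand for Hsd17b7, chr5:28071183-28071362, plus strand for Insig1 and chr1:121332590-121332769, minus strand for Insig2.
Hmgcs1: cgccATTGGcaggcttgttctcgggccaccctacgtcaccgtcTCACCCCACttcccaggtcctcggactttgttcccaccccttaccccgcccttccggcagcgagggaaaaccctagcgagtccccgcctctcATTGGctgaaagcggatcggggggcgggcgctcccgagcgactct
Mvd: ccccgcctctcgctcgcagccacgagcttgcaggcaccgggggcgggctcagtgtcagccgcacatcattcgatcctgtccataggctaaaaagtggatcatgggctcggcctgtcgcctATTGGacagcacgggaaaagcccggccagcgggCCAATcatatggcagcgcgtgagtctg
Lss: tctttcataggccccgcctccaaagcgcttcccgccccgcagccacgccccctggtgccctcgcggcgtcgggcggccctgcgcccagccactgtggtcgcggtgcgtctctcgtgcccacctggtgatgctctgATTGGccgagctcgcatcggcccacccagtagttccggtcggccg
Hsd17b7: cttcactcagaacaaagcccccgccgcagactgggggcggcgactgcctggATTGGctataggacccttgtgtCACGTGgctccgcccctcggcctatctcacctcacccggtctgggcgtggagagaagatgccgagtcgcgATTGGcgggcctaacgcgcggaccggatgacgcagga
Insig1: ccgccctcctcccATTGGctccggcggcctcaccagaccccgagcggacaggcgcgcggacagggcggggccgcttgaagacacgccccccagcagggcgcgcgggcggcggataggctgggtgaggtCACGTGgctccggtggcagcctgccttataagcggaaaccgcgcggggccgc
Insig2: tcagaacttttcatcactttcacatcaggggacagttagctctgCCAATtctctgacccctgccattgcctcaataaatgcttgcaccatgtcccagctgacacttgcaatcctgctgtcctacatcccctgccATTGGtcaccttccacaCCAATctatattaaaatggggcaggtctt
The table held an entry for 24 of the 30 members, with windows from 250 bases before to 50 bases after the annotated start. Some members had more than 1 start, giving 32 windows, and a gene counted if any of its windows held a match. The NF-Y boxes of Insig2 lay only in the window shown, not at its other starts. Both strands were searched, and overlapping matches were kept. The NF-Y box occurred in 20 of the 24 members (83.3%), against 41.1% of the 27025 genes with an entry. The E-box was found in 5 members (Dhcr7, Hsd17b7, Insig1, Sc5d and Scap; 20.8%), against 8.09% of all genes. Hmgcs1 alone held the sterol response element core, 137 bases before its start, against 1.44% of all genes. These matches are letters in a window and say nothing of binding.

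Library totals ran from 24920434 to 58782055 counts, so that 3 counts corresponded to 0.0532 to 0.126 CPM (counts per 1000000 counts of the library, scaled with TMM factors). The 30 members together took 0.318% to 0.628% of a library. ES markers (Pou5f1, Nanog, Sox2, Zfp42 and Esrrb) summed to 1997 and 1919 CPM in ES and to 1.40 to 98.7 CPM elsewhere. HB markers (Kdr, Pdgfra, Etv2, Tal1 and Lmo2) summed to 10.6 and 10.8 CPM in ES, 1423 and 1811 in HB and 795 to 1518 later. They did not set HB apart from HE1. Endothelial markers (Cdh5, Pecam1, Tek, Kit, Sox17 and Emcn) summed to 1330 to 2995 CPM in HE1 and HE2 and to 263 to 783 CPM elsewhere. Blood markers (Itga2b, Runx1, Spi1, Gfi1b, Ptprc and Myb) summed to 995 to 1393 CPM in HE2 and HP. Erythroid markers (Hbb-bh1, Hba-x, Hba-a1 and Alas2) summed to 1.65 to 10.7 CPM in ES and HB and 235 to 4298 CPM in the 3 later stages. Smooth muscle markers (Acta2, Tagln and Myh11) summed to 9.29 to 92.2 CPM in ES and HB and to 357 to 919 CPM later. Endoderm markers, a list of 6 genes that includes Afp and Ttr, summed to no more than 6.28 CPM in any library. The 2 ES libraries were the closest pair, with a mean chi-square of 3.10 per gene, against 27.2 to 62.4 in the other stages; sampling of reads alone gives a mean near 1.

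Replicate 2 of HE1 stood apart from replicate 1 of HE1. Its ES markers summed to 66.9 CPM against 6.31 in replicate 1, with 5 of 5 markers higher, and its cardiac markers to 90.9 against 24.8 CPM, of which Tnnt2 gave 74.2 against 16.0. Its smooth muscle markers summed to 919 against 614 CPM, and its endothelial markers to 1739 against 2995 CPM, with 6 of 6 lower. Among the members, 29 of 30 were lower in replicate 2 than in replicate 1 of HE1, with Insig2 the exception, whereas 51.3% of all tested genes were lower there. The median log2 difference between these libraries was -0.59 over the members and -0.02 over all tested genes. Most members also differed in 1 direction between the libraries of other stages. In HE2, 29 of 30 were higher in replicate 2 (45.4% of all tested genes; median log2 difference 0.39), Insig2 again the exception, while its endothelial markers summed to 1330 against 1897 CPM and its blood markers to 1364 against 995 CPM. In HP, 28 of 30 were lower in replicate 2 (52.2% of all tested genes; median -0.26), while its erythroid markers summed to 2288 against 4298 CPM and its smooth muscle markers to 357 against 749.5 CPM. In HB, 24 of 30 were higher in replicate 2 (47.2% of all tested genes; median 0.12), and in ES 19 of 30 were (47.5%; median 0.03). The part of cell composition in these shifts was not tested, and in bulk samples fewer cells of a type and less RNA per cell cannot be told apart. Changes into HE1 are therefore given with the value without its replicate 2 where that ends a call.

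**Figure D1:**
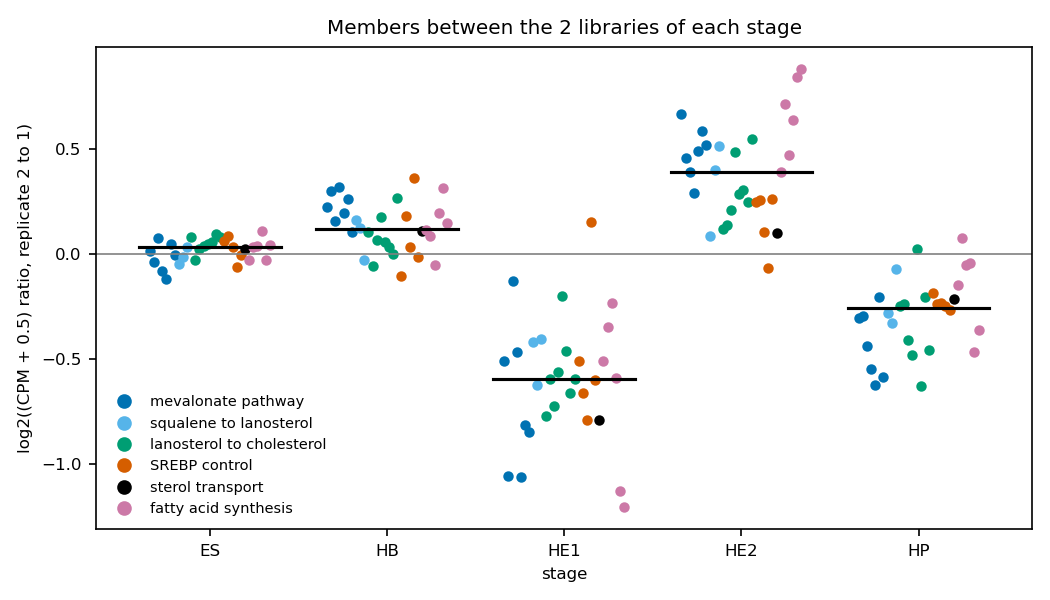
Difference between replicate 2 and replicate 1 of each stage for the 30 members, as the log2 ratio of CPM + 0.5 (vertical axis), by stage (horizontal axis); each point is a member, coloured by role, and the black bar is the median over members. In HE1 all points but that of Insig2 lie below 0, in HE2 all but that of Insig2 lie above 0, and the medians are -0.59 and 0.39.

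The summed level of the mevalonate pathway genes was highest in HB. The 7 mevalonate genes summed to 399 and 393 CPM in ES, 792 and 939.8 in HB, then 481 and 266 in HE1, 479.6 and 680.5 in HE2 and lastly 505 and 383 in HP. Both HB libraries lay above all 8 others. Hmgcs1 was the largest part of the HB sums, and without it HE2 replicate 2 lay above HB replicate 1. The 8 enzymes from lanosterol to cholesterol did not separate HB from ES, with sums of 539 and 561 CPM in ES and 521 and 561 CPM in HB. The summed level of the 30 members was 5638 and 5770 CPM in ES, 5901 and 6370 in HB, then 4263 and 2808 in HE1, 4190 and 5864 in HE2 and lastly 4730 and 4109 in HP. The 6 fatty acid genes made up most of these sums, with 3497 and 3578 CPM in ES. HE1 replicate 2 was the lowest of these libraries, while HE1 replicate 1 lay above HE2 replicate 1 and HP replicate 2. By mean level, 14 members were highest in HB, 11 in ES, 3 in HP, 2 in HE2 and 0 in HE1. Without HE2 replicate 1 these counts were 12 in HB, 9 in ES, 0 in HP, 9 in HE2 and 0 in HE1. The lowest mean fell in HE1 for 19 members, in HP for 6, in ES for 4 and in HB for 1. The HE1 count turned on replicate 2 of HE1, since without it the lowest mean fell in HE1 for 11 members and in HP for 11. Of the 7 mevalonate pathway genes, 6 peaked in HB, whereas 4 of the 6 fatty acid genes peaked in ES. Without HE2 replicate 1, Acat2 and Idi1 of the first group and Fasn of the second peaked in HE2 instead. In a single test over the 5 stages (edgeR's quasi-likelihood test, Benjamini-Hochberg adjusted p below 0.05), 25 of the 30 members varied, beside 66.7% of all tested genes. Fasn, Insig2, Sc5d, Sqle and Tm7sf2 did not pass.

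**Figure D2:**
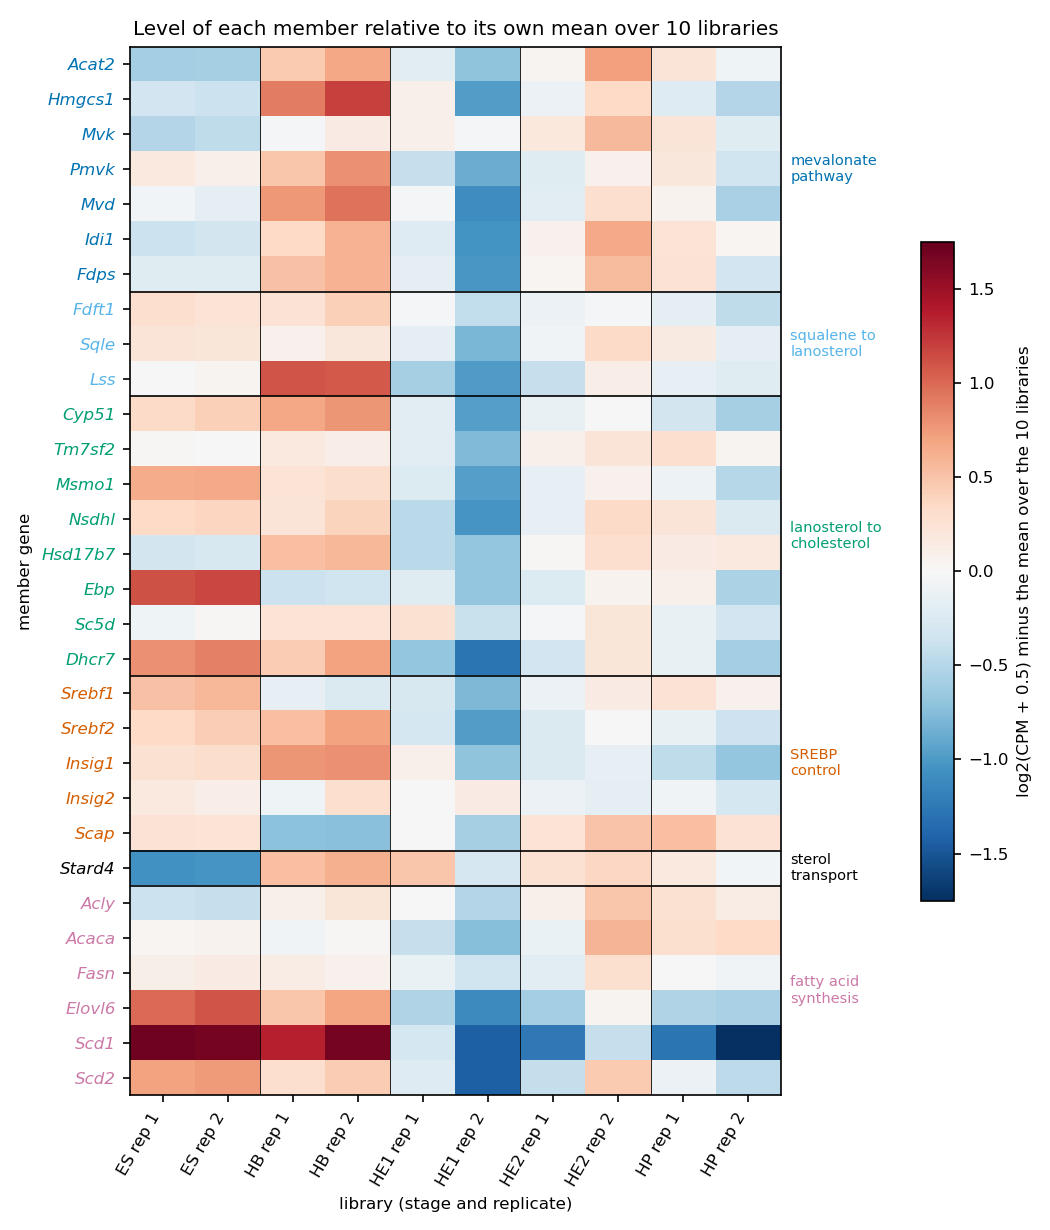
Level of each of the 30 members (rows, grouped by role) in each of the 10 libraries (columns), as log2(CPM + 0.5) minus the mean of that gene over the 10 libraries. Most mevalonate genes are red in both HB libraries, Ebp and Elovl6 are red in ES, Scd1 is red in ES and HB alone, and the HE1 replicate 2 column is blue for 29 of the 30 members.

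From ES to HB, 6 of the 7 mevalonate genes passed the test as higher, while the fatty acid genes did not pass it. A gene is called here at an adjusted p below 0.05 and a change of at least 2-fold. In HB, 4 members were called higher (Acat2, Hmgcs1, Lss and Stard4; 11.5% of all tested genes were called higher) and 1 was called lower (Ebp; 17.3% of all tested genes). Without the fold limit, 9 members were higher in HB (17.8% of all tested genes) and 3 were lower (Ebp, Scap and Srebf1; 22.6%). Of the 6 mevalonate genes among the 9, Acat2 and Hmgcs1 passed without any 1 of the 4 ES and HB libraries, whereas Fdps, Idi1, Mvd and Mvk each lost the test whichever of these libraries was left out. The median log2 change was 0.85 over the mevalonate genes, 0.05 over the 8 enzymes from lanosterol to cholesterol and -0.11 over the 6 fatty acid genes, against 0.00 over all tested genes. The 5 calls held without each of the 10 libraries in turn, but only 7 members in place of 12 passed without ES replicate 2 or without HB replicate 2.

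From HB to HE1, 19 of the 30 members passed the test as lower and none as higher. In HE1, 16 members were called lower (8.19% of all tested genes) and 0 were called higher (12.7% of all tested genes). At any fold, the 19 lower members stood beside 14.8% of all tested genes and the 0 higher beside 17.5%. The estimate was negative for 29 of 30 members, Scap being the exception, and the median log2 change was -1.03 against 0.04 over all tested genes. Both HE1 libraries lay below both HB libraries for 25 members (32.6% of all tested genes) and above them for 1, Scap (32.9%). The libraries overlapped for Ebp, Insig2, Mvk and Sc5d. The size of this fall rested partly on HE1 replicate 2. Without it, the median over the members was -0.65, against 0.00 over all tested genes, and 26 of 30 estimates were negative. Dhcr7, Elovl6, Hsd17b7, Lss, Pmvk and Scd1 were still called lower, and the estimate of Scap was 0.75. Of the other 10 calls, Cyp51, Hmgcs1, Insig1 and Srebf2 still passed at under 2-fold, and Acat2, Fdps, Idi1, Mvd, Nsdhl and Scd2 did not pass. Without HB replicate 2 the median over the members was -0.97, against 0.01 over all tested genes.

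**Figure D3:**
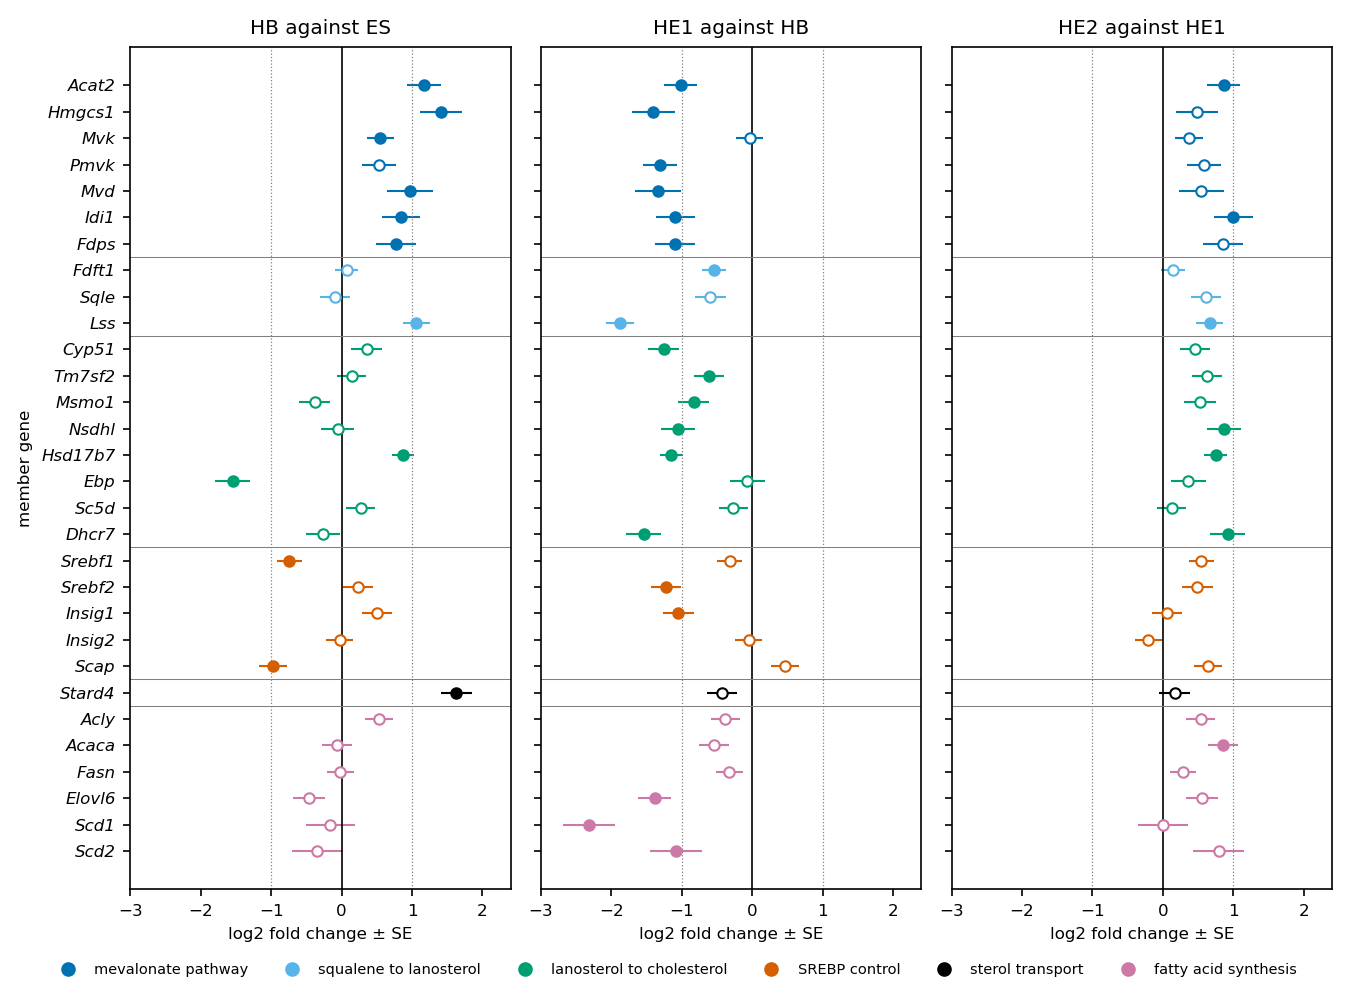
Log2 fold change with its standard error (horizontal axis) of each of the 30 members (rows, coloured by role) in HB against ES, HE1 against HB and HE2 against HE1, from edgeR fitted to all 10 libraries; filled points passed an adjusted p below 0.05 and dotted lines mark a 2-fold change. The mevalonate genes lie to the right in HB against ES, 29 of 30 points lie to the left in HE1 against HB, and 28 of 30 lie to the right in HE2 against HE1.

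From HE1 to HE2, 7 of the 30 members passed the test as higher, and this depended on single libraries. In HE2, 1 member was called higher (Idi1; 3.26% of all tested genes) and 0 lower (5.38%). At any fold, 7 were higher (Acaca, Acat2, Dhcr7, Hsd17b7, Idi1, Lss and Nsdhl; 6.12% of all tested genes) and 0 lower (7.11%). Estimates were positive for 28 of 30 members, with a median log2 change of 0.55 against -0.08 over all tested genes. The 7 did not hold without HE1 replicate 2 or without HE2 replicate 2, where fewer of all tested genes passed as well. The median over the members was then 0.30 and 0.38, against -0.002 and -0.05 over all tested genes. With HE1 replicate 2 as the only HE1 library it was 0.91 (-0.02 over all tested genes). With HE2 replicate 2 as the only HE2 library it was 0.72 (-0.16 over all tested genes).

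**Figure D4:**
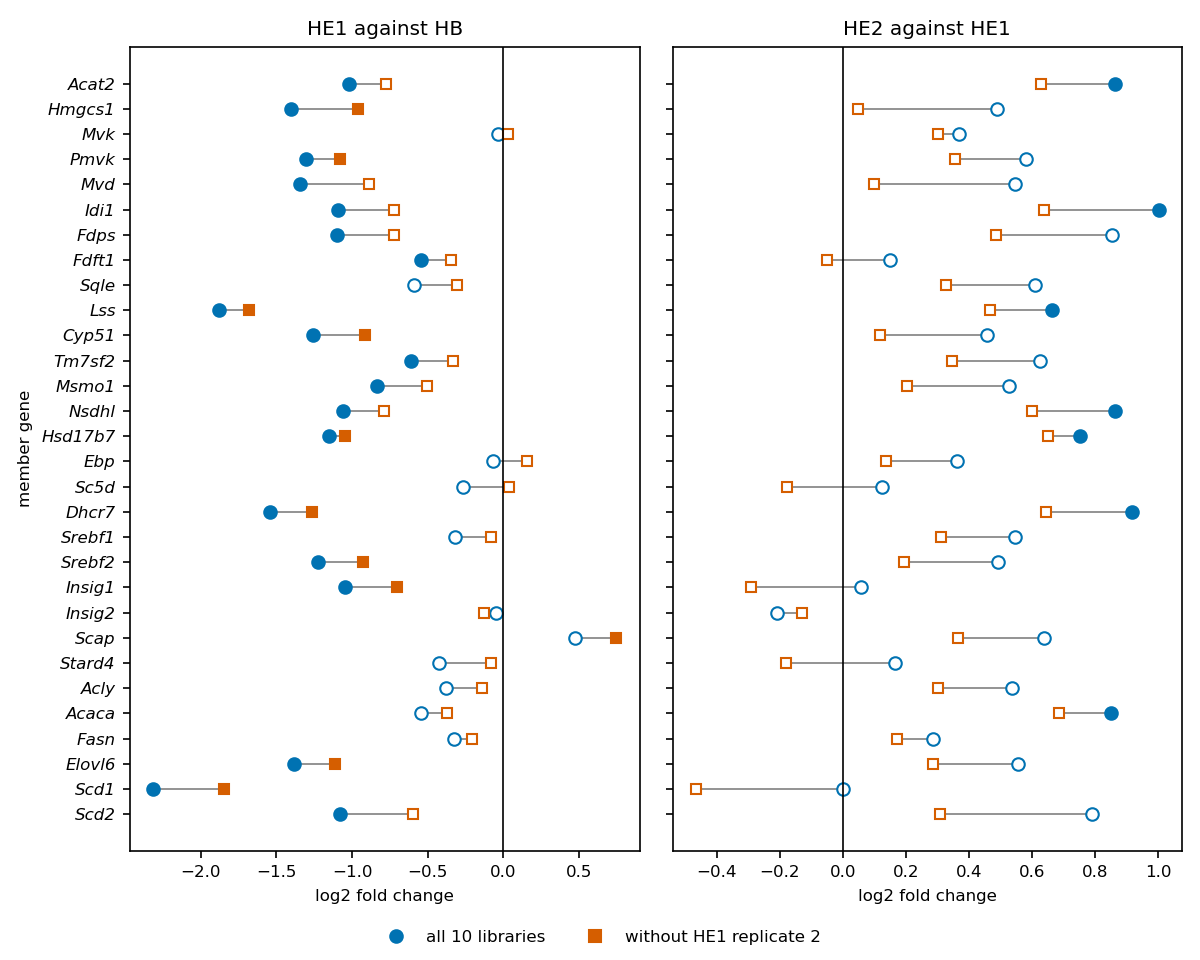
Log2 fold change (horizontal axis) of each of the 30 members (rows) in HE1 against HB and in HE2 against HE1, from all 10 libraries (circles) and without HE1 replicate 2 (squares); filled symbols passed an adjusted p below 0.05. The median moves from -1.03 to -0.65 in HE1 against HB and from 0.55 to 0.30 in HE2 against HE1, where no square is filled.

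Between HE2 and HP no member passed the test. By edgeR's quasi-likelihood test 0 members passed in either direction, as did 0 of all 22596 genes (0.0%), and at an unadjusted p below 0.05 the counts were 0 members and 1783 genes. DESeq2 passed 468 genes and limma-voom 66, and neither passed a member. The median log2 change over the members was -0.24, with 25 of 30 negative, against 0.01 over all tested genes. This direction rested on single libraries. Without HE2 replicate 2 the median was 0.04, with 12 of 30 negative, and without HP replicate 2 it was -0.07. Against HE1, 0 members were called in HP in either direction (5.35% of all tested genes called higher and 11.2% lower), and 7 were higher at any fold (Acaca, Hsd17b7, Lss, Nsdhl, Scap, Srebf1 and Tm7sf2; 11.0%). These 7 also turned on single libraries: without HE1 replicate 2, 0 of the 7 passed and Scd1 and Insig1 passed as lower in HP, while without HP replicate 1 only 1 member passed. Against ES, 1 member was called higher in HP (Stard4; 16.7% of all tested genes) and 4 lower (Dhcr7, Ebp, Elovl6 and Scd1; 21.9%). At any fold, 5 members were higher in HP than in ES (24.1%) and 10 lower (27.5%). Each stage serves in more than 1 of these comparisons, so the comparisons are not independent.

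Acat2 encodes the cytosolic thiolase that joins acetyl-CoA units at the entry of the route, and reads it shares with its close paralog Acat3 were not counted. It stood at 40.3 and 40.7 CPM in ES, 83.9 and 97.9 in HB, then 52.9 and 37.0 in HE1, 63.1 and 100.4 in HE2 and lastly 71.5 and 57.8 in HP. Both ES libraries lay below all others but 1, HE1 replicate 2. The change was 1.17 on the log2 scale from ES to HB (SE 0.24, edgeR adjusted p = 0.00286) and -1.02 from HB to HE1 (SE 0.24, edgeR adjusted p = 0.00918). The latter did not pass without HE1 replicate 2 (log2 change -0.78, edgeR adjusted p = 0.0643) or without HB replicate 2 (edgeR adjusted p = 0.0598). Hmgcs1 encodes the cytosolic HMG-CoA synthase and lies at chr13:119690379-119708260 on the plus strand (mm10). Its level was 178 and 174 CPM in ES, 419 and 516 in HB, 239 and 114 in the HE1 and 209 and 287 in the HE2 libraries, and 193 and 157 in HP. The HB libraries lay above all 8 others. From ES to HB Hmgcs1 rose 2.66-fold (log2 1.41, SE 0.30, edgeR adjusted p = 0.00373), and on the log2 scale it fell by 1.40 from there to HE1 (SE 0.30, edgeR adjusted p = 0.006). Without HE1 replicate 2 that fall was 0.96 on the log2 scale, short of the 2-fold limit, and still passed.

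The later mevalonate enzymes, Mvk apart, also had their highest mean level in HB. Pmvk, the phosphomevalonate kinase, was at 21.5 and 20.3 CPM in ES and 26.8 and 33.5 in HB, followed by 14.3 and 10.2 in HE1, 16.4 and 20.1 in HE2 and finally 21.8 and 14.7 in HP. Its fall of 1.31 from HB to HE1 on the log2 scale (SE 0.25, edgeR adjusted p = 0.00299) was among those still called without HE1 replicate 2. Mvd, the mevalonate diphosphate decarboxylase, was at 33.9 and 31.2 CPM in ES, 59.5 and 68.2 in HB, then 34.3 and 16.2 in HE1, 30.5 and 43.1 in HE2 and lastly 36.4 and 23.4 in HP. It rose by 0.97 on the log2 scale into HB (SE 0.32, edgeR adjusted p = 0.0338) and changed by -1.34 into HE1 (SE 0.33, edgeR adjusted p = 0.0114). The rise did not pass without any 1 of the ES and HB libraries (edgeR adjusted p up to 0.139). The fall did not pass without HE1 replicate 2 (log2 change -0.89, edgeR adjusted p = 0.055) or HB replicate 2 (edgeR adjusted p = 0.0585). Idi1, the isomerase of the 5-carbon isoprenoid unit, was at 22.1 and 22.8 CPM in ES, 36.6 and 44.1 in HB, 24.4 and 13.6 in the HE1 and 30.3 and 45.7 in the HE2 libraries, and 34.1 and 29.5 in HP. Both HE2 libraries lay above both HE1 libraries, a log2 change of 1.00 (SE 0.27, edgeR adjusted p = 0.0401) that sat on the 2-fold limit and was 0.64 (edgeR adjusted p = 0.202) without HE1 replicate 2. Fdps, the farnesyl diphosphate synthase, was at 85.2 and 84.8 CPM in ES and 141 and 151 in HB, followed by 87.9 and 48.5 in HE1, 101 and 145 in HE2 and finally 117 and 78.0 in HP. Its annotation shares 1124 exon bases on the same strand with the gene Gm43738 and reads there were counted for both, so the level of Fdps alone is uncertain. Mvk, the mevalonate kinase, was the member of this group that was not called: its lowest library was 18.2 CPM (ES) and its highest 39.2 CPM (HE2), and from HB to HE1 its log2 change was -0.04.

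Among the enzymes from squalene to lanosterol, Lss changed most. Lss encodes lanosterol synthase, which cyclises oxidosqualene to lanosterol, and lies at chr10:76531588-76557138 on the plus strand (mm10). It was at 70.2 and 71.8 CPM in ES, 149.6 and 147 in HB, then 46.1 and 34.7 in HE1, 52.5 and 75.2 in HE2 and lastly 62.9 and 59.9 in HP. Both HB libraries lay far above the other 8, and of the blast-culture libraries only HE2 replicate 2 lay above ES. Lss rose by 1.06 on the log2 scale into HB (SE 0.19, edgeR adjusted p = 0.0013) and fell 3.67-fold into HE1 (log2 -1.88, SE 0.19, edgeR adjusted p = 9.32e-05). Without HE1 replicate 2 the fall was 1.68 on the log2 scale and was still called. Fdft1 (squalene synthase) and Sqle (squalene epoxidase) were called in no comparison. Fdft1 ran from 52.2 CPM (HP) to 95.1 CPM (HB), and Sqle from 58.7 CPM (HE1) to 129.5 CPM (HE2).

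Of the 8 enzymes from lanosterol to cholesterol, 4 had their highest mean in ES, 3 in HB and 1 in HP. Cyp51, the lanosterol 14-alpha-demethylase, was at 135 and 143 CPM in ES, 172 and 185 in HB, 94.3 and 55.1 in the HE1 and 98.2 and 107 in the HE2 libraries, and 85.8 and 72.1 in HP. HB was highest and the change into HE1 was -1.26 on the log2 scale (SE 0.22, edgeR adjusted p = 0.00202), or -0.91 without HE1 replicate 2, which still passed. Hsd17b7, a 3-ketosteroid reductase of the pathway, was at 19.3 and 19.9 CPM in ES and 35.2 and 36.6 in HB, followed by 17.3 and 15.0 in HE1, 24.5 and 29.9 in HE2 and finally 26.8 and 27.2 in HP. The HB libraries lay above all others and the HE1 libraries below all others. Hsd17b7 rose by 0.87 into HB (SE 0.16, edgeR adjusted p = 0.00162), fell by 1.15 into HE1 (SE 0.16, edgeR adjusted p = 0.000601) and rose by 0.75 into HE2 (SE 0.16, edgeR adjusted p = 0.0201), all on the log2 scale. The first 2 of these changes passed under all 17 alternative settings, the last under 14. Nsdhl, a sterol dehydrogenase that acts with Hsd17b7 in removing methyl groups, was at 41.7 and 42.8 CPM in ES, 38.2 and 43.2 in HB, then 23.5 and 15.7 in HE1, 29.6 and 41.6 in HE2 and lastly 38.3 and 27.4 in HP. Its ES and HB libraries overlapped (log2 change -0.05), and it changed by -1.06 into HE1 (SE 0.24, edgeR adjusted p = 0.00843). That change did not pass without HE1 replicate 2 (-0.79, edgeR adjusted p = 0.0587) or HB replicate 2 (edgeR adjusted p = 0.0515).

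The late enzymes Ebp and Dhcr7 had their highest mean level in ES. Ebp encodes the sterol isomerase known as emopamil-binding protein and lies on chromosome X at chrX:8185329-8193512, minus strand (mm10). It was at 33.2 and 34.6 CPM in ES, 11.5 and 11.8 in HB, 12.9 and 9.28 in the HE1 and 12.7 and 15.8 in the HE2 libraries, and 16.1 and 10.2 in HP. The 2 ES libraries stood far above the other 8, which overlapped among themselves. Ebp fell 2.91-fold from ES to HB (log2 -1.54, SE 0.25, edgeR adjusted p = 0.000741), while Hmgcs1, Lss and Acat2 rose. Dhcr7 encodes the reductase of the last step to cholesterol. It was at 106 and 112 CPM in ES and 82.3 and 99.0 in HB, followed by 37.6 and 24.8 in HE1, 47.7 and 70.0 in HE2 and finally 55.3 and 40.1 in HP. Its log2 change from ES to HB was -0.26, not past the test, and it fell 2.91-fold into HE1 (log2 -1.54, SE 0.25, edgeR adjusted p = 0.00133). Without HE1 replicate 2 the fall was 1.26 on the log2 scale and still called. Msmo1, Tm7sf2 and Sc5d were called in no comparison, with ranges of 47.0 to 146 CPM, 12.4 to 26.6 CPM and 31.1 to 49.6 CPM. Tm7sf2 shares 532 exon bases with Vps51 on the same strand, where reads were counted for both genes.

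The SREBP regulators did not move as a block. Srebf2, which encodes SREBP2, was at 448 and 474 CPM in ES, 507 and 575 in HB, then 284 and 179 in HE1, 296 and 354 in HE2 and lastly 322 and 273 in HP. It was highest in HB and changed by -1.23 on the log2 scale into HE1 (SE 0.22, edgeR adjusted p = 0.00216), or by -0.93 without HE1 replicate 2. Srebf1, which encodes SREBP1, was at 224 and 234 CPM in ES, 142 and 132 in HB, 129 and 90.4 in the HE1 and 146 and 174 in the HE2 libraries, and 187 and 165 in HP. It fell from ES to HB, by 0.74 on the log2 scale (SE 0.18, edgeR adjusted p = 0.00779), when Acat2 and Hmgcs1 rose. The fall did not pass without ES replicate 2 or HB replicate 2 (edgeR adjusted p up to 0.0665). Scap, the escort of both factors, was at 82.5 and 82.2 CPM in ES and 42.1 and 41.7 in HB, followed by 70.0 and 46.1 in HE1, 82.2 and 98.5 in HE2 and finally 100.0 and 83.0 in HP. The HB libraries and HE1 replicate 2 were the lowest of the 10. Scap fell by 0.98 on the log2 scale from ES to HB (SE 0.20, edgeR adjusted p = 0.00279), and it was the only member with a positive estimate from HB to HE1 (log2 change 0.47, edgeR adjusted p = 0.092; without HE1 replicate 2, 0.75, edgeR adjusted p = 0.0112).

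The 2 INSIG genes differed in how far they varied. Insig1, itself a classical SREBP target, was at 98.3 and 101 CPM in ES, 139 and 143 in HB, then 86.5 and 49.8 in HE1, 68.2 and 73.4 in HE2 and lastly 59.9 and 50.8 in HP. It changed by -1.05 on the log2 scale from HB to HE1 (SE 0.22, edgeR adjusted p = 0.00528) and was 0.85 lower on that scale in HP than in ES (SE 0.22, edgeR adjusted p = 0.00784). Without HE1 replicate 2 the first change was -0.70 and still passed, and without HP replicate 2 the second did not pass (edgeR adjusted p = 0.0696). Insig2, which is not a classical SREBP target, was at 18.4 and 17.6 CPM in ES, 15.4 and 19.96 in HB, 16.1 and 18.02 in the HE1 and 15.1 and 14.4 in the HE2 libraries, and 15.5 and 13.0 in HP. Its highest stage mean was 1.26 times its lowest, and it passed no test. That was the smallest such ratio of the 30 members, but the ratio of Fasn was nearly the same, and smaller without HE1 replicate 2. Stard4, a soluble sterol carrier between membranes, was at 54.0 and 54.9 CPM in ES and 162 and 175 in HB, followed by 159 and 91.9 in HE1, 136 and 146 in HE2 and finally 127 and 109.7 in HP. Both ES libraries lay below all 8 others. Stard4 rose 3.10-fold into HB (log2 1.63, SE 0.22, edgeR adjusted p = 0.000245). Its log2 change into HE1 was -0.43, not past the test. It was still 2.18-fold higher in HP than in ES (log2 1.12, SE 0.22, edgeR adjusted p = 0.0016).

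At the 2-fold limit, the 3 fatty acid genes of chain synthesis were called in no comparison. The 3 genes of elongation and desaturation were called lower from HB to HE1. Fasn, the fatty acid synthase, ran from 855 CPM (HE1) to 1317 CPM (HE2) and passed no test. Acly, which makes cytosolic acetyl-CoA from citrate, ran from 375 CPM (HE1) to 747 CPM (HE2), and Acaca, the acetyl-CoA carboxylase, from 106 CPM (HE1) to 269 CPM (HE2). Under 2-fold, Acly passed as higher in HP than in ES (log2 change 0.59, edgeR adjusted p = 0.031). Acaca passed as higher than in HE1 in HE2 (0.85, edgeR adjusted p = 0.0331) and in HP (0.89, edgeR adjusted p = 0.0142). Without HE1 replicate 2 these Acaca changes were 0.68 and 0.72. Elovl6, which elongates palmitate to stearate, was at 219 and 236 CPM in ES, 154 and 176 in HB, then 76.1 and 50.3 in HE1, 72.6 and 113 in HE2 and lastly 75.8 and 73.7 in HP. ES and HB lay above all 6 later libraries. Elovl6 changed by -1.39 on the log2 scale from HB to HE1 (SE 0.23, edgeR adjusted p = 0.00166) and was 3.04-fold lower in HP than in ES (log2 -1.61, SE 0.23, edgeR adjusted p = 0.000248).

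The stearoyl-CoA desaturases Scd1 and Scd2, which place the double bond of oleate, are neighbours on chromosome 19 (Scd1 at chr19:44394455-44407879, minus strand; Scd2 at chr19:44293674-44306864, plus strand; mm10). Scd1 was at 194 and 190.4 CPM in ES, 153 and 191 in HB, 47.9 and 21.6 in the HE1 and 24.7 and 44.7 in the HE2 libraries, and 24.1 and 17.3 in HP. The 4 libraries of ES and HB lay above the 6 later ones without overlap. Scd1 fell 4.97-fold from HB to HE1 (log2 -2.31, SE 0.37, edgeR adjusted p = 0.00118) and was 9.27-fold lower in HP than in ES (log2 -3.21, SE 0.38, edgeR adjusted p = 6.03e-05), the largest change of any member in the 6 comparisons. Without HE1 replicate 2 the fall into HE1 was 1.84 on the log2 scale. Scd2 was at 1326 and 1367 CPM in ES and 1007 and 1116 in HB, followed by 699.6 and 303 in HE1, 609.9 and 1124 in HE2 and finally 762 and 593 in HP. HE1 replicate 2 was its lowest library and HE2 replicate 2 lay just above both HB libraries. Scd2 passed with a log2 change of -1.08 from HB to HE1 (SE 0.37, edgeR adjusted p = 0.0459) that was -0.60 and did not pass without HE1 replicate 2. It also did not pass without either HB library, without either HP library or with the replicate block (edgeR adjusted p up to 0.208 over all 17 alternatives).

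Of the Scd1 and Scd2 pair, Scd2 was the more abundant transcript in all 10 libraries. Per kilobase of exon, the mean level in ES was 246 CPM for Scd2, 39.3 for Scd1, 108 for Fasn and 77.3 for Acly. On that scale Scd1 gave 14.0% and 13.5% of Scd1 plus Scd2 in ES, 14.5% and 16.1% in HB, then 7.10% and 7.38% in HE1, 4.32% and 4.25% in HE2 and lastly 3.41% and 3.15% in HP. The share fell from stage to stage after HB, and the 2 libraries of HE1 and of HE2 gave nearly the same share although their levels of either gene differed widely. Reads that matched both genes equally were not counted, so the share rests on reads specific to each. Srebf1 gave 38.9% and 38.6% of Srebf1 plus Srebf2 per kilobase in ES, 26.3% and 22.6% in HB, then 36.7% and 39.2% in HE1, 38.7% and 38.5% in HE2 and lastly 42.6% and 43.5% in HP. HB was the stage with the lowest share of Srebf1. Insig1 gave 91.0% and 88.9% of Insig1 plus Insig2 in HB and 75.6% to 86.6% elsewhere. Shares were not tested.

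**Figure D5:**
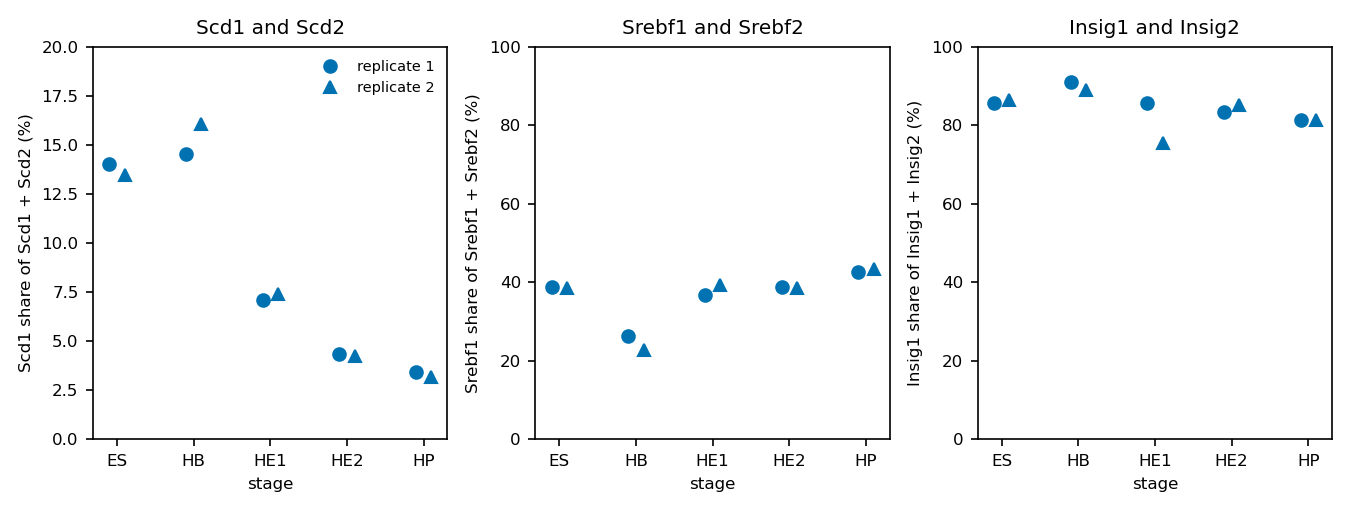
Share of the first gene of a pair in the summed level of the pair, in percent of CPM per kilobase of exon (vertical axis), in each library by stage (horizontal axis; circles, replicate 1; triangles, replicate 2). The Scd1 share falls from 14.5% and 16.1% in HB to 3.41% and 3.15% in HP, the Srebf1 share dips to 26.3% and 22.6% in HB, and the Insig1 share is highest in HB.

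Genes around these pathways were counted from 3 further lists. Of 16 tested genes of sterol synthesis, uptake and storage, the test passed 5 as higher (17.8% of all tested genes) and 6 as lower (22.6%) in HB against ES, and 2 as higher (17.5%) and 6 as lower (14.8%) in HE1 against HB. Vldlr, a lipoprotein receptor, was at 4.40 and 4.19 CPM in ES, 310.2 and 351 in HB, then 9.29 and 10.4 in HE1, 9.90 and 5.55 in HE2 and lastly 5.40 and 4.13 in HP. It was high in HB alone (log2 change 6.27 from ES, SE 0.29, and -5.07 into HE1, SE 0.27, edgeR adjusted p = 4.59e-07 and 3.88e-06). Soat1, which esterifies cholesterol, rose from 123 and 124 CPM in ES to 381 and 436 CPM in HB (log2 change 1.72, SE 0.19, edgeR adjusted p = 5.52e-05). Among the 8 genes of sterol efflux and its LXR control, 3 passed as higher and 4 as lower in HB against ES, beside the same 17.8% and 22.6% of all tested genes. With the 2-fold limit, 3 were called higher (11.5% of all tested genes) and 3 lower (17.3%), so the list did not move in 1 direction. The cholesterol exporters fell most: Abca1 was at 108 and 114 CPM in ES, 7.10 and 5.86 in HB, 31.5 and 13.7 in the HE1 and 27.9 and 23.0 in the HE2 libraries, and 26.3 and 27.1 in HP (ES to HB, log2 change -4.10, SE 0.34, edgeR adjusted p = 1.05e-05). Abcg1 was at 58.0 and 58.98 CPM in ES and 1.82 and 2.14 in HB, followed by 7.78 and 5.78 in HE1, 8.86 and 13.6 in HE2 and finally 20.4 and 19.98 in HP (ES to HB, log2 change -4.88, SE 0.27, edgeR adjusted p = 1.02e-06). Both were lowest in HB, and both rose into HE1 (log2 change 1.80, SE 0.32, and 1.77, SE 0.25, edgeR adjusted p = 0.00212 and 0.000611). They were the 2 genes of this list that passed as higher in HE1 against HB (17.5% of all tested genes), while 2 passed as lower (14.8%). Of 23 tested further genes of fatty acid metabolism, 5 passed as higher and 9 as lower in HE1 against HB (17.5% and 14.8% of all tested genes), and 7 as higher and 1 as lower in HE2 against HE1 (6.12% and 7.11%). Acss2, which makes acetyl-CoA from acetate, was at 10.0 and 9.98 CPM in ES, 9.25 and 10.2 in HB, then 2.56 and 1.62 in HE1, 9.04 and 5.74 in HE2 and lastly 24.03 and 17.0 in HP. It was lowest in HE1 and changed by 3.30 on the log2 scale from HE1 to HP (SE 0.33, edgeR adjusted p = 0.000177). Without HE1 replicate 2 these changes were all still called, at -5.15 for Vldlr, 2.29 for Abca1 and 1.97 for Abcg1 from HB to HE1 and 3.00 for Acss2 from HE1 to HP. Without HE1 replicate 1 the rise of Abca1 into HE1 was 1.04 (edgeR adjusted p = 0.00356), just above the 2-fold limit.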

How the data were processed

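Nuclear RNA was enriched from HM-1 ES cells and from the sorted HB, HE1, HE2 and HP populations, rRNA was depleted, and stranded libraries were sequenced (10 libraries, 2 per stage). Before deposit the authors removed rRNA reads with RiboDetector, trimmed with Trimmomatic, aligned to mm10 with HISAT2 (version 2.2.1) and, per the file headers, counted exon reads per gene with featureCounts (version 2.0.1) on the reverse strand with Ensembl release 102 gene models. A read over 2 overlapping genes was counted for each, and multi-mapping reads were not counted. The deposited counts are raw whole numbers per gene and library. The authors also deposited 1 score per gene and stage, a normalised stage mean, which was used to choose the members and as an alternative source of levels; it has no replicate.

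From the counts, TMM factors were computed and edgeR (version 4.0.16; R version 4.3.3) was fitted to all 10 libraries with stage as the only term, after its filter on low counts (filterByExpr), leaving 5 residual degrees of freedom. Quasi-likelihood tests covered 6 comparisons and the 5 stages together, with Benjamini-Hochberg adjustment over the 22596 genes tested. A call needed an adjusted p below 0.05 and a change of at least 2-fold. The study tested with limma-voom, which is an alternative here (limma version 3.58.1), as is DESeq2 (version 1.42.0). CPM are counts per 1000000 counts of the TMM-scaled library, given per kilobase of exon where genes are compared. Values in every library are printed for members called in at least 1 comparison and for the 5 SREBP regulators, the other members by range. From each of the 3 further gene lists, only genes called in at least 1 comparison, and among the 4 with the largest change, were named, and 1 gene of these lists is not reported here. The members and lists were chosen with earlier results of these data known. Promoter windows came from a RefSeq table (GRCm38.p6). Single-library counts set a floor of 3 counts; this covers counting error only.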

Additional observations from a re-analysis of the deposited data

How the results depend on the processing

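The counts of members called were recomputed under limma-voom, DESeq2, library totals instead of TMM, all genes unfiltered, totals that leave out the 20 most counted genes, fits of only the 4 libraries compared, a replicate block, no fold threshold and without each library in turn. Of 60 single-gene results past the test, 0 changed direction under any setting, but many lost the test: 25 without HB replicate 2, 24 without HE1 replicate 2, 20 and 19 without ES replicate 2 and 1, 17 without HB replicate 1, 16 and 14 without HP replicate 1 and 2, 15 with the replicate block, 12 in the fits of 4 libraries, 7 without HE2 replicate 2 and at most 2 elsewhere. In the stage means deposited by the authors, 2 of the 60 moved. Without the fold threshold, the members counted were 12 in HB against ES, 7 in HE2 against HE1, 7 in HP against HE1 and 15 in HP against ES. The 1 call in HE2 against HE1 (Idi1) was lost, leaving 0, under DESeq2, total counts, the fit of 4 libraries and the replicate block. Its log2 change fell just under the 2-fold limit with DESeq2 (0.99) and total counts (0.93), and its adjusted p missed the threshold in the fit of 4 libraries (0.097) and with the block (0.0587).

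Leaving out 1 library at a time gave 5 members called in HB against ES throughout, 6 to 17 in HE1 against HB, 0 to 9 in HE2 against HE1, 0 in HP against HE2, 0 to 7 in HP against HE1, 4 to 6 in HP against ES and 20 to 28 varying over the 5 stages. The lone library of a stage is then assumed to vary like the other stages. The low ends in HE1 against HB came without HE1 replicate 2 (6) and HB replicate 2 (10), and the high ends in HE2 against HE1 without HE1 replicate 1 (9) and HE2 replicate 1 (6). In HP against ES, 7 to 9 members in place of 15 passed at any fold without either ES or either HP library.

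Over all genes, the count past the test in HE2 against HE1 was 2990, and 4708 with DESeq2, 6061 without the filter, 544 in the fit of 4 libraries and 734 without HE1 replicate 2. In HP against HE2 it was 0, and 66 with limma-voom, 468 with DESeq2 and 846 without the filter, where 1 member, Scd1, passed as lower. The count of genes was 633 without HE2 replicate 2, 73 without HE1 replicate 1 and 64 without HE1 replicate 2. In HE2 against HE1, 737 genes were called higher and 1216 lower, and without the filter 954 and 2864. Total counts in place of TMM moved the median of all genes in HE2 against HE1 to -0.17, and that of the members to 0.47.

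The deviations of same-numbered libraries of different stages had correlations from -0.32 to 0.21 over 10 pairs of stages. With 2 libraries per stage, this cannot decide whether the numbers pair the samples. With the replicate block the members called were 5 in HB against ES, 15 in HE1 against HB and 0 in HE2 against HE1, and the members past the test in HE2 against HE1 were 2 in place of 7. That count was 13 with DESeq2, 19 without the filter and 0 in the fit of 4 libraries. All members lay far above the floor of 3 counts in all 10 libraries.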
